A study of Mus musculus with 8 samples.

Results

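Hair follicles form when the surface epithelium and the dermis under it exchange secreted signals, and the genes described here carry those signals or act on them. They are 36 genes chosen by name for their known roles: 7 of the hedgehog pathway, 4 of the Eda pathway, 8 of the Bmp pathway, 2 Wnt effectors, 7 transcription factors and receptors of follicle stem cells and progenitors, and 8 genes of the dermal papilla, the mesenchymal core at the base of the follicle. All 36 were measured, out of the 18194 genes that could be read on these arrays. Each was read at its brightest probe set (a group of short oligonucleotides that together report 1 transcript) among those annotated to that gene alone.

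The samples were dorsal skin of mouse embryos on Affymetrix mouse genome expression arrays, 4 from GR-/- embryos (label numbers 5, 17, 25 and 26) and 4 from GR+/+ embryos (4, 6, 28 and 29). GR is the glucocorticoid receptor, a hormone-activated transcription factor encoded by Nr3c1, and the comparison asks which skin genes differ in its absence. The embryos were littermates of the B6D2/F1 strain, taken by cesarean at day 18.5, when dorsal skin holds follicles at several stages, and no treatment is named. The genotype is given for the embryo, not for skin alone, and the labels do not say how the gene was disrupted. Whether every array stands for a different embryo is not stated, so p-values measure the spread between these samples, which may be in part technical.

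As background, Wnt and Eda signals in the epithelium set the places where follicles start, Bmp signals limit them, and Shh from the follicle epithelium then drives its growth downward and the maturing of the dermal papilla. Each pathway switches on its own inhibitors: Axin2 is induced by Wnt and dampens it, and Hhip and Ptch1 are induced by hedgehog signalling and bind the hedgehog ligand. Glucocorticoids and their receptor are known for speeding the maturation of fetal epidermis before birth.

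Promoter windows, from 250 bases before to 50 bases after the start of the gene, are shown for Axin2, Hhip and Edar, the 3 members with a window whose GR-/- arrays all read higher than the GR+/+ arrays. They are RefSeq windows of mouse assembly GRCm38.p6, printed 5′ to 3′ on the strand of the gene, with a searched motif in capitals.
Axin2, chr11:108920099-108920398, plus strand: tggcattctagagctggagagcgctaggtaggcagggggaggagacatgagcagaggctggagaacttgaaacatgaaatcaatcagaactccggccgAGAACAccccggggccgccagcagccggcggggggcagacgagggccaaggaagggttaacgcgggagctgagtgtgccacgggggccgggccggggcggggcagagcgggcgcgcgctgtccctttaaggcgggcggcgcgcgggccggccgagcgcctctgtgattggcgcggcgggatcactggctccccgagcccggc
Hhip, chr8:80057959-80058258, minus strand: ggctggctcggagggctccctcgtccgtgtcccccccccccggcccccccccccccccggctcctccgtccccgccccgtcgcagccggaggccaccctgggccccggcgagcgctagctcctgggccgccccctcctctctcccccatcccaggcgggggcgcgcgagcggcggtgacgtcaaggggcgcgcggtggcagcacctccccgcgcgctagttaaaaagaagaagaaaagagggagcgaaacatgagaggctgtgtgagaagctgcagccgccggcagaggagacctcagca
Edar, chr10:58675647-58675946, minus strand: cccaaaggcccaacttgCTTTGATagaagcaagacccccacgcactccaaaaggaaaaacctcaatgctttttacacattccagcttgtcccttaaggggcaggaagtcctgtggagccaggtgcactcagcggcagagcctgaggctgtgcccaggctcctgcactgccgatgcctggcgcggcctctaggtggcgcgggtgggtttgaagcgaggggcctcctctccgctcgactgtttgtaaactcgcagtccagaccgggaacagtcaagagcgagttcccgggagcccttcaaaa
The capitals mark 1 AGAACA in Axin2, a short site bound by glucocorticoid and related receptors, and 1 CTTTGAT in Edar, a core of the TCF/LEF site through which Wnt acts. Hhip held none of the letters searched. Windows existed for 26 of the 36 genes, 32 windows in all, and both strands were searched. AGAACA stood in 7 of these 32 windows, in Alpl, Axin2, Eda, Lef1, Prom1 and Sox21, against 19% of all 32851 windows. CTTTGAT stood in 1 of the 32, that of Edar, against 3.73% of all windows. GGCGCC, a core bound by SMAD proteins downstream of Bmp, stood in 8 of the 32, against 11.9% of all. The GLI core GACCACCCA, the NF-kB core GGGACTTTC, the SMAD site GTCTAGAC and the full glucocorticoid response element palindrome were in none of the 32 windows, against 0.253%, 0.353%, 0.213% and 0.00913% of all. AGAACA is one arm of that palindrome, and the other motifs share no such overlap. A match of letters is a description and not a binding site.

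Of the 36 genes, 1 passed an adjusted p of 0.05 in limma, higher in GR-/- skin, and 35 did not, beside 2.96% of all 18194 genes (1.4% higher and 1.56% lower). That gene was Axin2. Another 5 had an adjusted p from 0.0578 to 0.0960 in limma: Hhip, Edar and Sox18, higher in GR-/- skin, and Bmp2 and Edaradd, lower. The share of all genes in that range was not counted. Groups of 4 arrays did not overlap for 6 of the 36, of which 4 were higher in GR-/- skin (Axin2, Hhip, Edar and Sox18) and 2 lower (Edaradd and Alpl). Over all genes 13% did not overlap, 6.69% with GR-/- higher and 6.3% with GR-/- lower. An unadjusted p below 0.05 was reached by 7 members that were higher and 5 that were lower, 33.3% of the 36, beside 21.6% of all genes (10.5% higher and 11.1% lower).

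Differences below are GR-/- minus GR+/+ on the log2 scale, with the standard error of the fit. The 36 differences ran from -0.90 for Bmp2 to 0.84 for Hhip. Their median was 0.04 and their median size 0.20, beside -0.0045 and 0.12 over all genes. The sign was positive in 22 and negative in 14. Missing the threshold does not show that the genotypes were alike. For 19 of the 36, or 52.8%, the 95% interval left out differences over 1.5-fold in either direction, beside 78.8% of all genes. For 31, or 86.1%, it left out differences over 2-fold, beside 94.8% of all genes. In whole skin, fewer cells of a type and less RNA in each cell cannot be told apart.

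**Figure D1:**
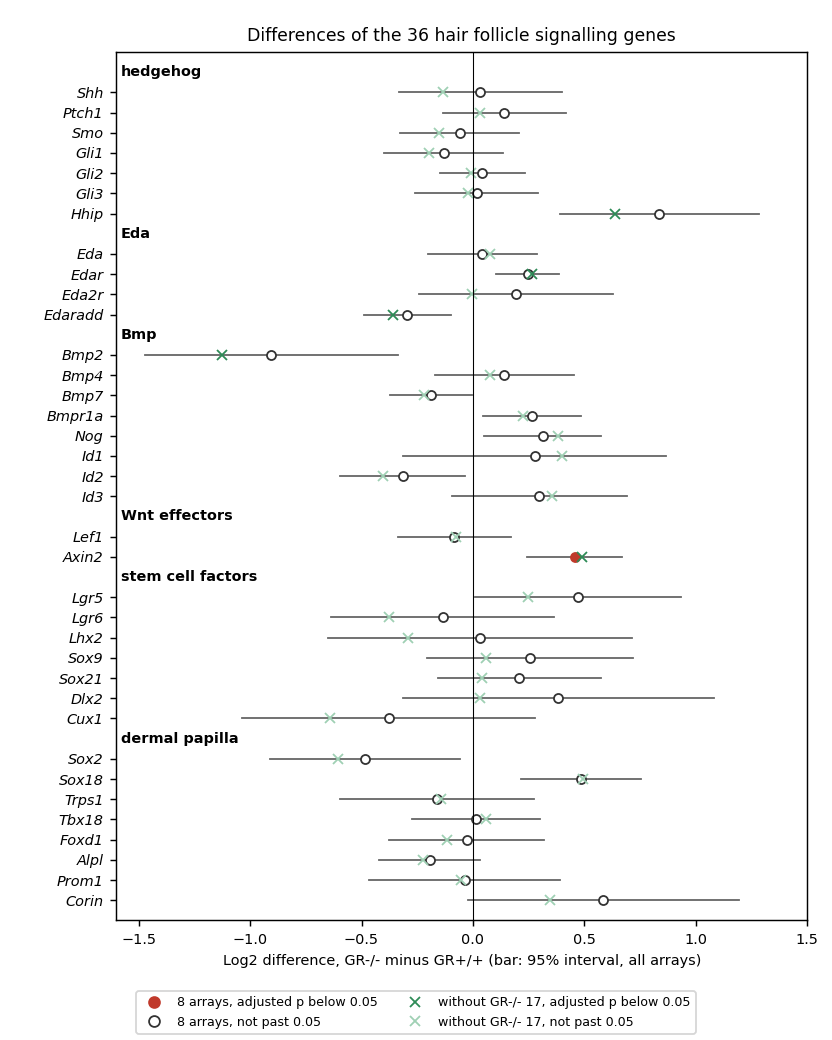
Log2 difference, GR-/- minus GR+/+, of the 36 genes by pathway, with circles for all 8 arrays, bars for the 95% interval and crosses for the fit without GR-/- 17. Axin2 is the single filled circle, Hhip and Bmp2 lie farthest from 0, and the crosses of Axin2, Hhip, Edar, Edaradd and Bmp2 are dark (adjusted p below 0.05).

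Before the pathways, the arrays themselves are described. Nr3c1 was lower in every GR-/- array at 3 of its 6 probe sets; at the brightest it read 9.21 to 9.62 in GR-/- skin, against 10.24 to 10.32 in GR+/+ skin, and the other 3 overlapped between the genotypes. Over all probe sets, which are no replicates of each other, Pearson correlations ran from 0.978 to 0.994 within GR-/- arrays and from 0.987 to 0.994 within GR+/+ arrays. GR-/- 17 and GR+/+ 6 had Xist, the RNA of the inactive X chromosome, at 12.61 and 13.22, against 5.92 to 6.38 on the other arrays. The mean of 3 Y-linked transcripts was 3.83 on both, against 8.29 to 8.99 on the others. Both thus read as female and the other arrays as male. Fits without GR-/- 17 therefore set male GR-/- samples against a GR+/+ group that still holds GR+/+ 6. Array GR-/- 17 also stood apart in other ways. The 9 marker genes of follicle epithelium, keratins and trichohyalin, averaged 9.86 on GR-/- 17, against 6.35 to 7.15 on the other GR-/- arrays and 6.49 to 6.56 in GR+/+ skin. Krt17 followed this less than the others, at 10.83 on GR-/- 17, 10.39 to 10.66 on the other GR-/- arrays and 9.25 to 10.40 in GR+/+ skin. Markers of interfollicular keratinocytes were present at high levels, with the 8 genes averaging 12.43 to 12.85 in GR-/- skin and 12.28 to 12.68 in GR+/+ skin. Their differences were positive in 4 and negative in 4. Trp63 passed the threshold and was higher in GR-/- skin (0.60, adjusted p = 0.0372 in limma). Dsc3 differed by 0.82 and Krt1 by -0.15, both without overlap and short of the threshold.

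Markers of muscle and of pigment cells also moved with genotype. All 20 skeletal muscle genes had negative differences, 3 of them past the threshold (Tnnt1, Myh3 and Actn2), and their mean was 10.24, 11.34, 10.54 and 10.45 on GR-/- 5, 17, 25 and 26, against 11.33 to 11.44 in GR+/+ skin. The muscle mean of GR-/- 17 thus lay within the GR+/+ range. The 6 melanocyte genes averaged 8.63 to 9.29 in GR-/- skin and 8.01 to 8.39 in GR+/+ skin, with Tyr and Pmel past the threshold and higher. Mlana and Mitf differed by only 0.06 and 0.03. The part of either list in the differences given here was not tested. A fit with the muscle mean as a covariate was run, but it cannot test the part of muscle. That mean hardly varied between GR+/+ arrays and set GR-/- 17 apart from the other GR-/- arrays. The slope of the fit thus rests mainly on GR-/- 17, which also had the high follicle keratins. That fit moved several of the differences given below by over 1.5 times. Some shrank: it gave -0.11 for Edaradd, -0.09 for Bmp7, -0.13 for Id2 and 0.12 for Nog. Others grew, among them Lgr5 to 1.09, Dlx2 to 1.37, Corin to 1.39, Lhx2 to 0.92, Eda2r to 0.80 and Shh to 0.56. None of these passed the threshold. The 7 dermal fibroblast genes averaged 13.33 to 13.47 in GR-/- skin and 13.22 to 13.45 in GR+/+ skin, so that their groups overlapped.

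**Figure D2:**
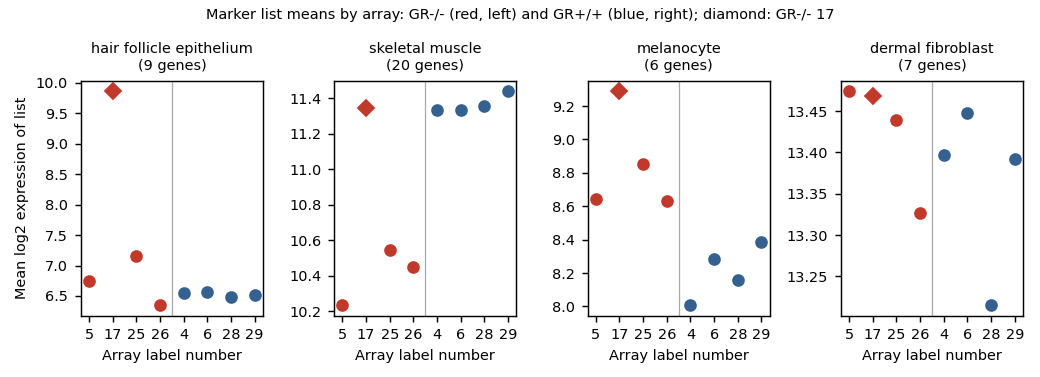
Mean log2 level of 4 cell type marker lists on each array, GR-/- on the left of each panel and GR+/+ on the right, with GR-/- 17 as a diamond. Follicle epithelium markers reach 9.86 on GR-/- 17 alone, muscle markers are at 10.24 to 10.54 on the other GR-/- arrays, and melanocyte markers are higher on all GR-/- arrays.

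GR-/- 17 also read high for many of the 36 genes. It was the highest of the GR-/- arrays for 25 of the 36, or 69.4%, beside 33.5% of all genes. It was above all 7 other arrays for 16 of the 36, or 44.4%, beside 15% of all genes. For 7, or 19.4% beside 0.857% of all genes, it lay above all other arrays by over 0.5: Hhip, Eda2r, Lgr5, Lhx2, Sox9, Sox21 and Dlx2. The median SD of the 36 genes was 0.24 over the GR-/- arrays and 0.17 over the GR+/+ arrays, and 0.15 over GR-/- 5, 25 and 26. Without GR-/- 17, 5 of the 36 passed the threshold, beside 9.01% of all genes (3.8% higher and 5.21% lower). Axin2, Edar and Hhip were then higher, and Bmp2 and Edaradd lower. The median difference of the 36 was then -0.0075.

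**Figure D3:**
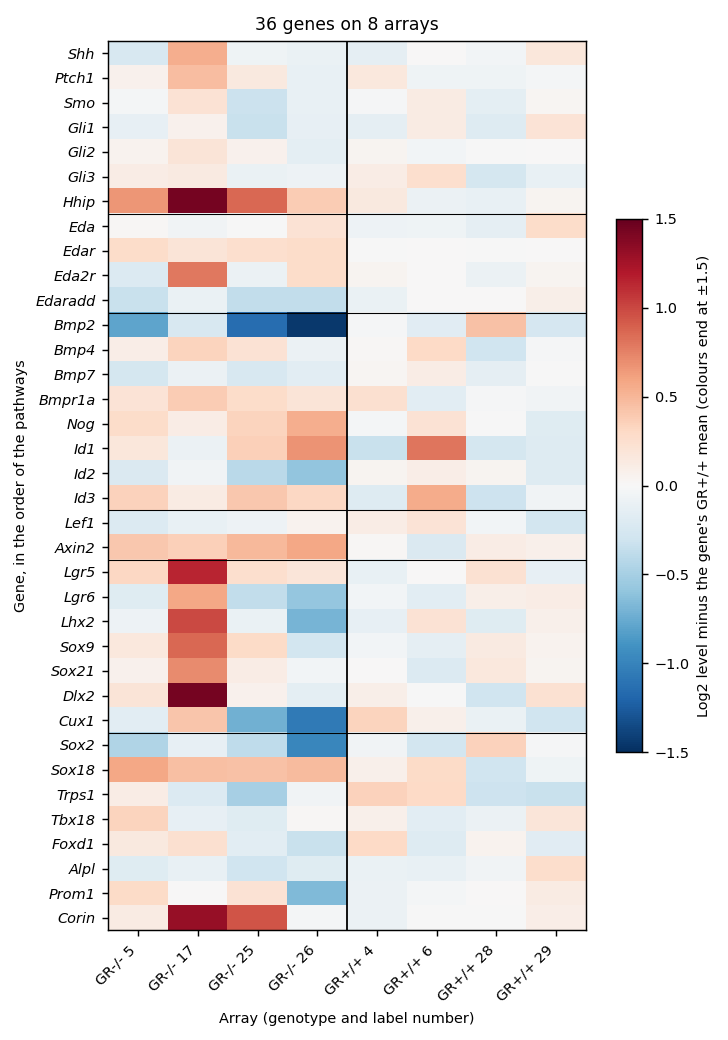
Log2 level of each of the 36 genes on each array minus the mean of that gene in GR+/+ skin, GR-/- arrays on the left, with horizontal lines between pathways. Hhip, Axin2, Edar and Sox18 are red on all GR-/- arrays, Bmp2 and Edaradd are blue on all of them, and GR-/- 17 is the reddest column for Dlx2, Lgr5, Lhx2, Sox9, Sox21, Corin and Hhip.

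In the hedgehog pathway, 6 of 7 genes differed by at most 0.14 in either direction at their brightest probe sets, and Hhip stood out. Other probe sets of Shh and Ptch1 had larger differences, as given with the probe sets. Shh, the ligand made by the follicle epithelium, read 10.03, 10.82, 10.22 and 10.17 on GR-/- 5, 17, 25 and 26, against 10.14, 10.28, 10.23 and 10.45 on GR+/+ 4, 6, 28 and 29; array values below keep this order. GR-/- 17 was the highest of the 8, and the groups overlapped. The difference was 0.03 ± 0.16 (adjusted p = 0.941), with a 95% interval of -0.33 to 0.40, and it was -0.14 without GR-/- 17. Ptch1, the receptor that holds the pathway off and is also its target, differed by 0.14 ± 0.12 (adjusted p = 0.570). Smo, which passes the signal on when Ptch1 is bound, differed by -0.06 ± 0.12, but a second Smo probe set read otherwise, as given with the probe sets. Of the transcription factors, Gli1, the standard target of the pathway, differed by -0.13 ± 0.12 (interval -0.40 to 0.14), Gli2, the main activator, by 0.04 ± 0.08, and Gli3, mainly a repressor, by 0.02 ± 0.12.

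Hhip, the decoy that binds hedgehog ligands at the cell surface, read 8.46, 9.23, 8.65 and 8.17 in GR-/- skin, against 7.94, 7.71, 7.68 and 7.84 in GR+/+ skin. Every GR-/- array lay above every GR+/+ array, with GR-/- 17 farthest up. Means were 8.63 ± 0.45 in GR-/- skin and 7.79 ± 0.12 in GR+/+ skin (SD, n = 4 each). The difference of 0.84 ± 0.20, or 1.79-fold, had an interval of 0.39 to 1.28 and an adjusted p of 0.0578 in limma. It was smaller, 0.64, but past the threshold without GR-/- 17 (adjusted p = 0.0214). Of 8 alternatives that kept all arrays, it passed in 4. Among these were further quantile normalization (0.0499) and the muscle mean as a covariate (a difference of 1.43, adjusted p = 0.0249). It missed the threshold in the other 4 (adjusted p up to 0.0576). It also missed it in the 7 other fits that left out 1 array (adjusted p up to 0.156). Gli1 and Ptch1, which like Hhip are targets of the pathway, had smaller differences at their brightest probe sets, and whether they differed from Hhip was not tested.

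In the Eda pathway, the receptor was higher in GR-/- skin and its adaptor lower at the brightest probe set, both without overlap and both short of the threshold. Eda, the ligand of the tumour necrosis factor family whose loss in mice removes the first wave of hair, differed by 0.04 ± 0.11 (adjusted p = 0.874). Its dimmer probe sets, from the brightest down, differed by 0.31, 0.25, 0.37 and -0.06, with unadjusted limma p of 0.0223, 0.0415, 0.0631 and 0.549. The groups did not overlap at the first of these. Edar, its receptor in the hair placode, read 7.94, 7.86, 7.91 and 7.95 in GR-/- skin, against 7.66, 7.68, 7.66 and 7.67 in GR+/+ skin. The GR+/+ arrays lay within a very narrow range, and all GR-/- arrays were above it. The difference was 0.25 ± 0.06, or 1.19-fold (interval 0.10 to 0.39, adjusted p = 0.0684), and it was 0.27 without GR-/- 17 (adjusted p = 0.0467).

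Edaradd, the adaptor that couples Edar to NF-kB, read 8.68, 8.92, 8.65 and 8.65 in GR-/- skin, against 8.92, 9.03, 9.03 and 9.10 in GR+/+ skin. GR-/- 17 all but touched the lowest GR+/+ array, and the other GR-/- arrays were clearly below. The difference was -0.29 ± 0.09 (interval -0.49 to -0.10, adjusted p = 0.0960), and it was -0.36 without GR-/- 17 (adjusted p = 0.0264). This probe set is of a kind prone to cross-hybridise, and the 4 other Edaradd probe sets did not all share its sign: from the brightest down, they differed by 0.03, 0.42 (unadjusted p = 0.0219), -0.25 (unadjusted p = 0.0162) and 0.05. Eda2r, the receptor of the other splice form of Eda, differed by 0.19 ± 0.19, and by -0.0061 without GR-/- 17.

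In the Bmp pathway no gene passed the threshold, and 5 of 8 had an unadjusted p below 0.05, beside 21.6% of all genes: Bmpr1a and Nog higher, and Bmp2, Bmp7 and Id2 lower. Bmp2, a ligand of placode and hair matrix epithelium, read 9.33, 9.89, 8.98 and 8.68 in GR-/- skin, against 10.11, 9.96, 10.56 and 9.87 in GR+/+ skin. The genotypes touched only through GR-/- 17, which was just above the lowest GR+/+ array. Means were 9.22 ± 0.52 in GR-/- skin and 10.12 ± 0.31 in GR+/+ skin (SD, n = 4 each). The difference of -0.90 ± 0.25, or 1.87-fold lower, had an interval of -1.47 to -0.34 and an adjusted p of 0.0838 in limma. Without GR-/- 17 Bmp2 was lower by more, at -1.13, and past the threshold (adjusted p = 0.0147). With the muscle mean as a covariate its difference came to -0.36 (adjusted p = 0.741).

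Of the other ligands, Bmp7 read 8.54, 8.72, 8.57 and 8.66 in GR-/- skin, against 8.84, 8.92, 8.67 and 8.81 in GR+/+ skin. Overlap was slight, and the difference was -0.19 ± 0.08 (adjusted p = 0.221). Bmp4, the ligand of follicle mesenchyme, differed by 0.14 ± 0.14 (adjusted p = 0.620). Bmpr1a, a receptor that the hair lineage needs to differentiate, read 10.86, 11.03, 10.93 and 10.85 in GR-/- skin, against 10.89, 10.49, 10.64 and 10.60 in GR+/+ skin. GR+/+ 4 was as high as the GR-/- arrays, and the difference was 0.26 ± 0.10 (adjusted p = 0.161). Nog, or noggin, a secreted inhibitor of Bmp ligands that lets follicles start, read 5.36, 5.19, 5.42 and 5.62 in GR-/- skin, against 5.05, 5.30, 5.08 and 4.90 in GR+/+ skin. Most GR-/- arrays were higher, with an overlap through GR-/- 17 and GR+/+ 6, and the difference was 0.31 ± 0.12 (adjusted p = 0.161).

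The Id genes, targets of Bmp signalling whose products block helix-loop-helix transcription factors, did not share a sign. Id2 read 10.25, 10.41, 10.05 and 9.87 in GR-/- skin, against 10.50, 10.56, 10.50 and 10.27 in GR+/+ skin. The overlap came through GR-/- 17, and the difference was -0.31 ± 0.12 (adjusted p = 0.187). The dimmer Id2 probe sets differed by -0.15 ± 0.17, with an overlap, and by -0.60 ± 0.19, without overlap. Id1 read 9.57, 9.31, 9.75 and 10.07 in GR-/- skin, against 9.06, 10.20, 9.13 and 9.20 in GR+/+ skin. GR+/+ 6 was far above its group, and the difference was 0.28 ± 0.26 (adjusted p = 0.606). Id3 differed by 0.30 ± 0.17 (adjusted p = 0.369), and it too was highest on GR+/+ 6, at 9.74.

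Of the Wnt effectors, Axin2 rose in GR-/- skin. Axin2, the scaffold that leads beta-catenin to destruction and a standard readout of Wnt activity, read 9.79, 9.75, 9.88 and 9.97 in GR-/- skin, against 9.41, 9.17, 9.50 and 9.47 in GR+/+ skin. All GR-/- arrays were above all GR+/+ arrays, and GR-/- 17 was the lowest of them, unlike for most of the 36 genes. Means were 9.85 ± 0.10 in GR-/- skin and 9.39 ± 0.15 in GR+/+ skin (SD, n = 4 each). The difference was 0.46 ± 0.09, or 1.37-fold, with an interval of 0.24 to 0.67 and an adjusted p of 0.0405 in limma. The call held without GR-/- 17 (0.49, adjusted p = 0.0253) and was lost on leaving out any other single array, with adjusted p up to 0.13 while the difference stayed between 0.39 and 0.50. It was also lost with further quantile normalization (adjusted p = 0.0509) and with the muscle mean as a covariate (difference 0.40, adjusted p = 0.377). Lef1, the DNA-binding partner of beta-catenin in placode, hair matrix and papilla, differed by -0.08 ± 0.11 (interval -0.34 to 0.17, adjusted p = 0.740). That was its brightest probe set. The dimmer Lef1 probe set differed by -0.39 ± 0.15, with an overlap between the genotypes.

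**Figure D4:**
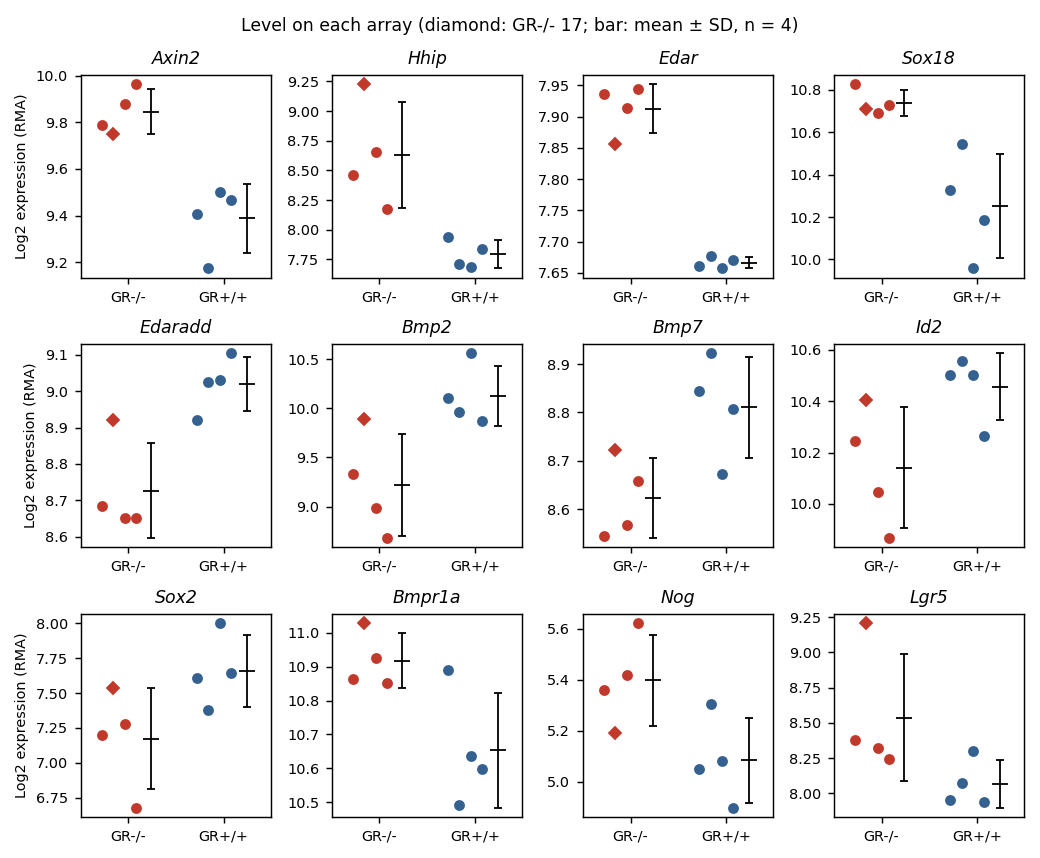
Log2 level on each array of the 12 members with an unadjusted p below 0.05, GR-/- in red on the left, GR+/+ in blue on the right, with bars for mean ± SD of 4 arrays and GR-/- 17 as a diamond. Axin2, Hhip, Edar and Sox18 have all GR-/- arrays on top, Edaradd has them below, and in Bmp2 GR-/- 17 alone reaches the GR+/+ range.

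None of the 7 stem cell and progenitor genes passed the threshold, and GR-/- 17 read highest of the 8 arrays for all 7. It was also the array with high follicle keratins, whose part in these values was not tested. Lgr5, the R-spondin receptor of follicle stem cells, read 8.38, 9.21, 8.32 and 8.24 in GR-/- skin, against 7.95, 8.07, 8.30 and 7.94 in GR+/+ skin. GR+/+ 28 reached the lower GR-/- arrays. The difference of 0.47 ± 0.20 (adjusted p = 0.223) came to 0.25 without GR-/- 17. A dimmer Lgr5 probe set read 5.55, 5.69, 5.58 and 5.57 in GR-/- skin, against 5.18, 5.27, 5.36 and 5.45 in GR+/+ skin. All GR-/- arrays were higher there, with a difference of 0.28 ± 0.08. The related receptor Lgr6 differed by -0.14 ± 0.22, and by -0.38 without GR-/- 17 (adjusted p = 0.0859).

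Lhx2, a transcription factor of the early hair bud, read 8.71, 9.78, 8.69 and 8.09 in GR-/- skin, against 8.66, 9.01, 8.61 and 8.87 in GR+/+ skin. GR-/- arrays took both the highest and the lowest value, and the difference was 0.03 ± 0.30. Dlx2, a homeobox factor, read 5.17, 6.41, 5.04 and 4.83 in GR-/- skin, against 5.06, 4.97, 4.68 and 5.20 in GR+/+ skin. Leaving out GR-/- 17 took the difference to 0.03, against 0.38 ± 0.31 with it. Sox9, which marks and maintains the stem cell lineage, differed by 0.26 ± 0.20 and by 0.06 without GR-/- 17. Sox21, a factor of the hair shaft cuticle, differed by 0.21 ± 0.16 and by 0.04 without that array. Cux1, a factor of the inner root sheath, differed by -0.38 ± 0.29 at its brightest probe set, with its other probe sets on the opposite side. The intervals are wide here: they left out differences over 1.5-fold for 1 of these 7 genes, and over 2-fold for 5. Over all genes these shares were 78.8% and 94.8%.

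Among the 8 dermal papilla genes none passed the threshold, and Sox18 came nearest. Sox18, a transcription factor of papillae and also of blood and lymph vessel endothelium, read 10.83, 10.71, 10.69 and 10.73 in GR-/- skin, against 10.33, 10.54, 9.96 and 10.18 in GR+/+ skin. All GR-/- arrays were higher and close together. The difference was 0.49 ± 0.12, or 1.40-fold (interval 0.22 to 0.76, adjusted p = 0.0628), and 0.50 without GR-/- 17 (adjusted p = 0.0574). The 8 blood endothelium genes averaged 8.52 to 8.60 in GR-/- skin and 8.40 to 8.90 in GR+/+ skin, so that they overlapped. Of the 8, 7 had negative differences, and Pecam1 was higher by 0.65 (adjusted p = 0.248 in limma). No list of lymph vessel genes was read, and the part of vessels in the Sox18 values was not tested.

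Sox2, expressed in the papillae of some hair types and in Merkel cells, read 7.20, 7.53, 7.28 and 6.68 in GR-/- skin, against 7.61, 7.38, 8.0 and 7.64 in GR+/+ skin. The difference was -0.48 ± 0.19 (adjusted p = 0.182), with an overlap through GR-/- 17 and GR+/+ 6, and it was -0.15 with the muscle mean as a covariate (adjusted p = 0.892). The 5 Merkel cell genes averaged 5.93 to 6.09 in GR-/- skin and 6.14 to 6.62 in GR+/+ skin, lower without overlap, while the 2 most specific, Atoh1 and Krt20, averaged 5.68 and 4.39 in GR-/- skin against 5.72 and 4.47 in GR+/+ skin. The part of Merkel cells in the Sox2 values was not tested. Alpl, the alkaline phosphatase used to stain papillae, read 6.19, 6.26, 6.06 and 6.18 in GR-/- skin, against 6.26, 6.26, 6.31 and 6.63 in GR+/+ skin. The groups met almost edge to edge, and the difference was -0.19 ± 0.10 (adjusted p = 0.304).

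Corin, a protease of the papilla that acts on coat colour, read 7.14, 8.33, 7.96 and 6.99 in GR-/- skin, against 6.93, 7.01, 7.01 and 7.12 in GR+/+ skin. GR-/- 17 and 25 were high and the other arrays alike, and the difference was 0.59 ± 0.27 (adjusted p = 0.247), or 0.35 without GR-/- 17. The remaining papilla genes lay close to 0: Trps1, a zinc finger factor, at -0.16 ± 0.19, Prom1, the surface marker CD133, at -0.04 ± 0.19, and the transcription factors Foxd1 and Tbx18 at -0.03 ± 0.15 and 0.01 ± 0.13. The array values of Shh, Lhx2, Dlx2 and Corin are given by a choice made after their values were seen.

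For 15 of the 36 genes there was 1 probe set and for 21 there were several, and some genes looked different at another probe set. P-values in this paragraph and the next are adjusted over all 45037 probe sets. The share of all probe sets past the threshold or without overlap was not counted, so the counts here have nothing to be set beside. The genes named were chosen after their values were seen. In Hhip the probe sets ran the same way: its 4 differed by 0.84, 0.88, 0.95 and 1.05, none overlapped between genotypes, and the 2 dimmest passed the threshold (adjusted p = 0.0254 and 0.0410). The second Axin2 probe set differed by 0.56 ± 0.19 (adjusted p = 0.124) with an overlap. Bmpr1a had 6 probe sets, 5 with positive differences, and 2 of them passed, at 0.51 (adjusted p = 0.0451) and 0.73 (adjusted p = 0.0213).

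Disagreement was plainest in Smo and Cux1. The second Smo probe set read 9.14, 9.11, 9.01 and 9.25 in GR-/- skin, against 8.65, 8.79, 8.41 and 8.59 in GR+/+ skin, a difference of 0.52 ± 0.10 (adjusted p = 0.0298). For Cux1, the 8 other probe sets all had positive differences, from 0.09 to 1.42, and 3 passed, at 1.0 (adjusted p = 0.0283), 1.42 (adjusted p = 0.00362) and 0.56 (adjusted p = 0.0208). Shh had a dim second probe set at 0.49 ± 0.12 (adjusted p = 0.0550) and Ptch1 a dim one at 1.12 ± 0.27 (adjusted p = 0.0550), both higher in GR-/- skin without overlap, while the brighter second Ptch1 probe set differed by -0.40 ± 0.24 (adjusted p = 0.378). Sox21 had a second at 0.75 ± 0.20 (adjusted p = 0.0649), also without overlap. Which transcript forms these probe sets report was not examined here.

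**Figure D5:**
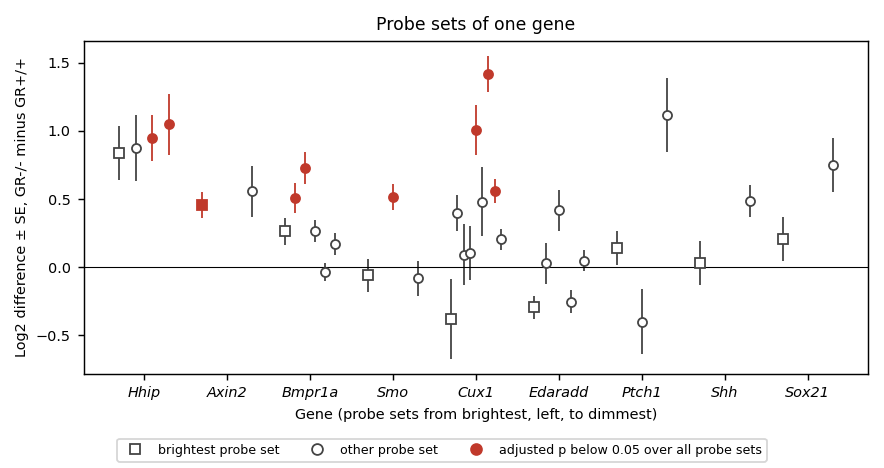
Log2 difference ± SE, GR-/- minus GR+/+, of every probe set of 9 members, from the brightest (square) on the left to the dimmest, filled where the adjusted p over all probe sets is below 0.05. The 4 Hhip probe sets lie together between 0.84 and 1.05, while those of Cux1, Edaradd and Ptch1 lie on both sides of 0.

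The rest of the same pathways was read from a list of 113 further genes, of which 104 could be read. Of these, 2 passed the threshold, both lower in GR-/- skin, beside 2.96% of all genes. Dvl1, which relays Wnt signals from the receptor, averaged 10.38 ± 0.22 in GR-/- skin and 10.92 ± 0.07 in GR+/+ skin (SD, n = 4 each), a difference of -0.54 (adjusted p = 0.0402). Its call was lost in 7 of 8 fits that left out 1 array, all but that without GR-/- 17, and the difference was -0.28 both with the muscle mean as a covariate (adjusted p = 0.499) and with its probe sets averaged (adjusted p = 0.0548). Ltb, lymphotoxin beta, a target of Eda signalling in the placode, averaged 5.28 ± 0.09 in GR-/- skin and 5.82 ± 0.22 in GR+/+ skin, also a difference of -0.54 (adjusted p = 0.0434). Its call was lost in 6 of 8 such fits, held without GR-/- 17 and without GR+/+ 28, and was lost with the muscle mean (adjusted p = 0.263) or the Y-linked mean (adjusted p = 0.0529) as a covariate. An unadjusted p below 0.05 was reached by 13 that were higher and 9 that were lower, 21.2% beside 21.6% of all genes. The share by pathway was 8 of 24 for Bmp (7 higher and 1 lower), 6 of 12 for Eda, 4 of 15 for stem cell factors, 3 of 19 for hedgehog, 1 of 17 for Wnt and 0 of 17 for the papilla, in limma.

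The 2 genes with the smallest p in each pathway without a call were as follows. In the hedgehog pathway, Evc, a ciliary protein that relays Smo activity, differed by -0.58 (adjusted p = 0.0617), and Sufu, an inhibitor of Gli proteins, by -0.38 (adjusted p = 0.0778). In the Bmp pathway, the extracellular Bmp modulators Twsg1 and Chrd differed by 0.52 (adjusted p = 0.0541) and -0.37 (adjusted p = 0.0581). Among stem cell genes, Hopx, a homeodomain-only protein, differed by -0.64 (adjusted p = 0.129) and Lrig1, an inhibitor of growth factor receptors, by 0.32 (adjusted p = 0.143). Of the papilla genes, Ngfr, a neurotrophin receptor, differed by -0.31 (adjusted p = 0.245) and the growth factor Igf1 by -0.38 (adjusted p = 0.329). Without GR-/- 17, 7 of the 104 passed, beside 9.01% of all genes: Dvl3, Msx2 and Twsg1 were higher, and Dvl1, Evc, Ltb and Sufu lower.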

How the data were processed

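Per the submitters' processing notes, the authors made the deposited log2 expression values with RMA (robust multi-array average), which subtracts background, equalises arrays and summarises each probe set. The sources used here give no version of it. Differences of dim and saturated probe sets can be compressed in array values of this kind, and the number of arrays limits the precision. Array medians lay between 6.47 and 6.52 log2.

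Of 45101 probe sets, 64 controls were left out. A linear model with genotype was fitted to the 45037 others with limma 3.58.1 in R 4.3.3 (lmFit, eBayes, two-sided). It was read at the brightest probe set annotated to 1 symbol, and p-values were Benjamini-Hochberg adjusted over 18194 genes with a threshold of 0.05. The fit was tested on simulated data. Groups came from the genotype labels.

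The members, the lists of other pathway genes and cell type markers, and the tests were chosen with earlier results of these data known. Array values are printed for members past the threshold, with an unadjusted p below 0.05 or with an outlying array. Other pathway genes are named where past the threshold, else the 2 with the smallest p in a pathway. Promoters are RefSeq windows of GRCm38.p6. Alternatives covered scaling, filter, variance prior, array weights, left-out arrays, covariates and the choice of probe set.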

Additional observations from a re-analysis of the deposited data

Results flagged for a closer look

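For each of the 36 genes the highest and lowest array of each genotype were set against the others by Dixon's test for 4 samples at its 95% critical value. Of 72 groups checked, 4 held an array that far out, and chance alone flags about 1 in 20 groups. In GR-/- skin, array 17 read 8.92 for Edaradd, against 8.68 for the next array (gap over range 0.876), and 9.21 for Lgr5, against 8.38 (0.862). In GR+/+ skin, array 6 read 10.2 for Id1, against 9.2 (0.876), and array 29 read 6.63 for Alpl, against 6.31 (0.862). Leaving out GR-/- 17 took the Edaradd difference to -0.36 and that of Lgr5 to 0.25, against -0.29 and 0.47 with it. The causes of these values were not tested.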

How the results depend on the processing

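Of the 36 members, 1 passed the threshold with all arrays and 0 to 5 on leaving out 1 array at a time; of the 104 other pathway genes, 2 passed and 0 to 7. The highest counts came without GR-/- 17, where 9.01% of all genes passed. Without GR+/+ 6 the 1 member past the threshold was Sox18, beside 1.76% of all genes, and without each of the other 6 arrays the limma count of members was 0, beside 0.434% to 1.62%. With array weights, which gave GR-/- 17 the lowest weight, 6 members and 11 other genes passed, beside 10.7% of all genes. Averaging the probe sets of each gene gave 4 members (Axin2, Bmpr1a, Hhip and Sox18) and 8 other genes, beside 4.86%. Without _x_at and _s_at probe sets 2 members passed (Axin2 and Smo), beside 3.02%. Of the other pathway genes, 1 passed with dim probe sets left out (Dvl1, beside 4.26%) and 1 with the Y-linked mean as a covariate (Dvl1, beside 3.24%). With the muscle covariate 0.588% of all genes passed, against 2.96% without it, and 1 member and 3 other genes, none of them the earlier calls: Hhip in place of Axin2, and Foxc1, Hoxc13 and Msx2 in place of Dvl1 and Ltb. Further quantile normalization also called Hhip in place of Axin2, beside 3.04%.

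Signs turned only among genes that passed neither with all arrays nor, except Smo without _x_at and _s_at probe sets, in the alternative. Under the muscle covariate the differences were Smo 0.1645, Gli1 0.0401, Eda -0.0226, Id1 -0.0527, Lgr6 0.5212, Cux1 0.2285, Tbx18 -0.1789 and Foxd1 0.1445. With array weights they were Shh -0.0649, Lhx2 -0.0744, Tbx18 -0.0026 and Prom1 0.023. With probe sets averaged they were Smo 0.1249, Lgr6 0.0134, Cux1 0.4311, Trps1 0.0375, Sufu 0.0995, Ngfr 0.1083 and Igf1 0.0696. Without _x_at and _s_at probe sets they were Smo 0.5166 (adjusted p = 0.0310), Edaradd 0.0278 and Cux1 0.3974, each read at another probe set. Quantile normalization gave Gli3 -0.0065 and the Y-linked covariate gave Lhx2 -0.01. Leaving out 1 array at a time, the sign also turned for these genes, with the range of differences Shh -0.1361 to 0.1256, Smo -0.1536 to 0.0285, Gli2 -0.0089 to 0.1042, Gli3 -0.0706 to 0.1022, Eda -0.0166 to 0.1325, Eda2r -0.0061 to 0.3277, Lgr6 -0.3764 to 0.0137, Lhx2 -0.2897 to 0.2737, Tbx18 -0.0927 to 0.0771, Foxd1 -0.1153 to 0.074, Prom1 -0.1453 to 0.1711. The causes were not tested.

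No paired analysis was possible because the labels do not say which litter each array came from, and litter was not in the model. With 4 arrays a genotype, intervals of the stem cell genes stayed wide, and skin was measured whole.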
